A study of Homo sapiens with 9 samples.

Results

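Bicarbonate, chloride and sodium transport in the biliary epithelium was followed through 8 genes in 9 RNA sequencing libraries of H69 cholangiocytes. The genes were chosen by name for their roles in biliary secretion (SLC4A2, SLC4A4, SLC4A7, SLC12A2, SLC26A6, CFTR, ANO1 and ATP1B1) and make up 8 of the 61541 genes listed in the count tables. H69 is an immortalized line of human bile duct cells, and all 9 libraries came from cells labelled wild type. The 3 control libraries came from cells given the vehicle DMSO, 3 libraries from cells given 10 µM acetazolamide, an inhibitor of carbonic anhydrases, and 3 from cells given 0.25 µg/cm2 of recombinant human laminin 511-E8, an integrin-binding fragment of a basement membrane laminin. Cells had grown to confluence for 48 hours, treatment lasted 48 hours with fresh medium after 24 hours, and RNA was captured by its poly(A) tail. For each group the submitters sequenced the 3 of 4 biological replicates with the best RNA integrity. All libraries are of 1 cell line, so p-values measure the spread between cultures of that line.

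Cholangiocytes secrete a bicarbonate-rich fluid that alkalinizes bile and coats their apical surface. Chloride leaves the cell through apical channels, chiefly the cAMP-activated channel CFTR and the calcium-activated channel ANO1, and is taken back up in exchange for bicarbonate by anion exchangers such as SLC4A2 (AE2). Basolateral carriers bring in bicarbonate with sodium (SLC4A4 and SLC4A7) and chloride with sodium and potassium (SLC12A2), driven by the sodium gradient that the Na,K-ATPase maintains.

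In these cells 6 of the 8 genes had counts in every library, CFTR had 3 counts over all 9 libraries and ANO1 had 0. The 6 counted genes included the anion exchangers, both sodium bicarbonate cotransporters, the chloride loader and the pump subunit. None of the 6 passed an adjusted p of 0.05 in acetazolamide against control, in laminin 511-E8 against control or in laminin 511-E8 against acetazolamide, with edgeR's quasi-likelihood test. None of the 6 reached an unadjusted p of 0.05 either, and 0 passed with DESeq2 or with limma voom. In all 6 genes libraries of the same group differed by more than the group means did. For SLC4A4 this was narrow, with control libraries from 0.974 to 1.19 CPM and group means from 0.901 to 1.09 CPM. The level of the 5 genes other than SLC4A4 correlated with how strongly each library favoured GC-rich transcripts, a relation not counted over all genes tested.

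Total counts ranged from 12529867 to 39518899 per library, so that a gene with 0 counts could lie at up to 0.0759 CPM (the count of a gene scaled by the total of its library) in the deepest library and 0.239 CPM in the shallowest, 3 counts in each, a limit that covers counting error only. All 5 cholangiocyte markers examined (EPCAM, KRT19, KRT7, SOX9 and CDH1) reached 10 counts or more in each control library, while 0 of 4 hepatocyte markers (ALB, ASGR1, TTR and APOA1) did. Of the fibroblast markers 2 of 4 did (COL1A1 and PDGFRB, with a sum over the 4 of 39.5 to 73.1 CPM), and of the endothelial markers 1 of 3 (PECAM1). Libraries of a group differed by more than sampling noise, with a chi-square per degree of freedom of 4.77 to 90.8 over pairs, so that all 9 were kept as separate samples.

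**Figure D1:**
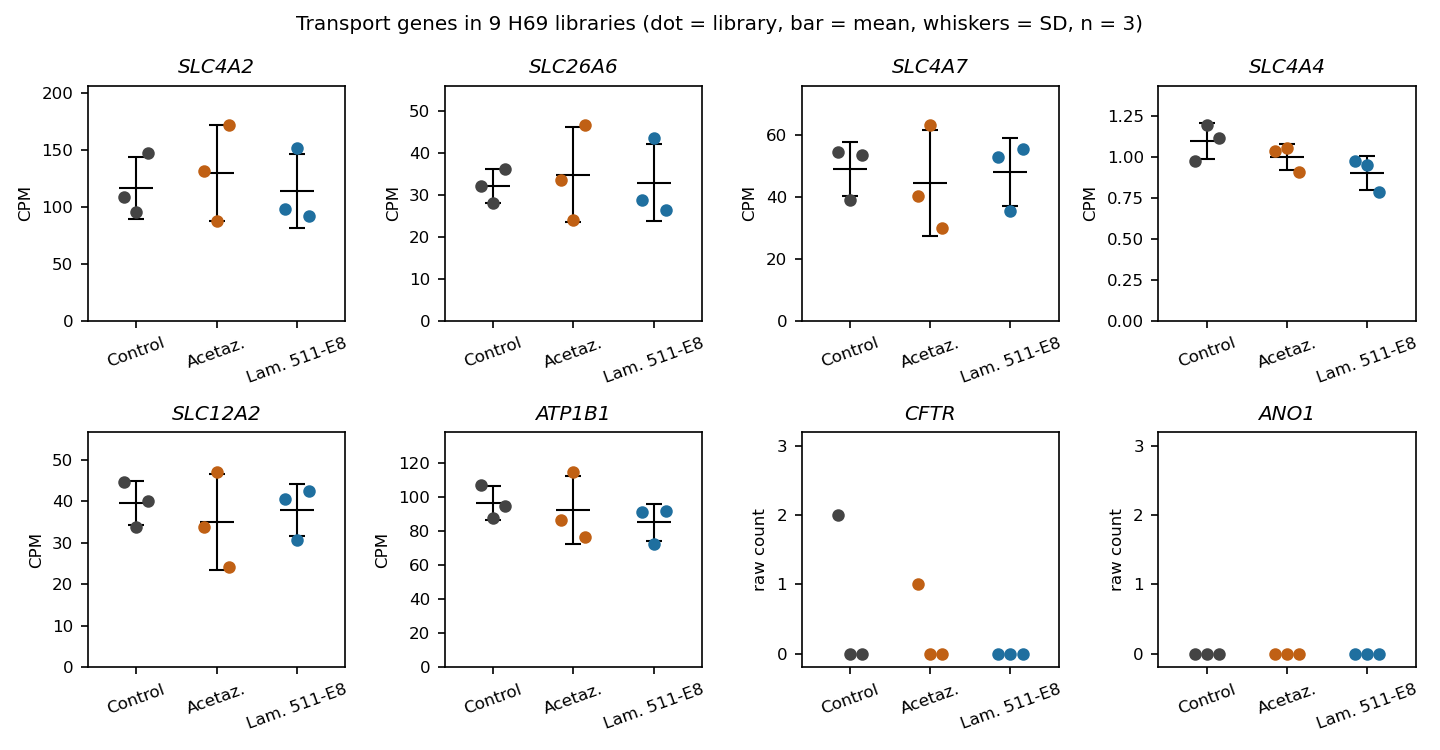
Level of the 8 transport genes in each library, in CPM for 6 genes and in raw counts for CFTR and ANO1, on a linear axis. Dots are libraries, and for the 6 genes in CPM the bars are group means with whiskers of 1 SD (n = 3). The groups overlap in all of these 6 except SLC4A4, where the lowest control library (0.974 CPM) lies just above the highest laminin 511-E8 library (0.972 CPM).

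SLC4A2 (ENSG00000164889, chromosome 7, 151057210 to 151076527, plus strand, GRCh38 with GENCODE 29) encodes AE2, which exchanges intracellular bicarbonate for chloride and is the main bicarbonate exporter of bile duct cells. It had 108, 95 and 147 CPM in the 3 control libraries, 131, 87.3 and 172 CPM with acetazolamide, and 98.0, 151 and 92.0 CPM with laminin 511-E8. The lowest and the highest of the 9 values both came from acetazolamide-treated cells, and the 3 groups overlapped. The group means were 117 ± 27.2, 130 ± 42.1 and 114 ± 32.7 CPM (SD, n = 3 each). SLC4A2 shares 331 exon bases with CDK5 and 714 with the antisense gene AC010973.2, both on the opposite strand, and how reads there were assigned is not given in the sources used here.

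SLC26A6 (ENSG00000225697, chromosome 3, 48625723 to 48635493, minus strand) encodes an apical exchanger of chloride for bicarbonate, oxalate and other anions. Its levels were 32.1, 28.0 and 36.2 CPM in control cells, 33.6, 24.1 and 46.6 CPM with acetazolamide and 28.8, 43.6 and 26.5 CPM with laminin 511-E8. The libraries with the highest and the lowest SLC26A6 in each group were also those with the highest and the lowest SLC4A2.

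SLC4A7 (ENSG00000033867, chromosome 3, 27372721 to 27484420, minus strand) encodes the electroneutral sodium bicarbonate cotransporter NBCn1. It had 54.4, 39.0 and 53.6 CPM in control cells, 40.2, 63.1 and 29.8 CPM with acetazolamide, and 53.0, 35.5 and 55.5 CPM with laminin 511-E8. Within the treated groups the order was the reverse of that of SLC4A2, with the second acetazolamide library highest and the third lowest. SLC4A4 (ENSG00000080493, chromosome 4, 71062667 to 71572087, plus strand), which encodes the electrogenic cotransporter NBCe1, was far lower, with 14 to 36 counts per library. Its levels were 0.974, 1.19 and 1.12 CPM in control cells, 1.03, 1.06 and 0.909 CPM with acetazolamide and 0.972, 0.947 and 0.784 CPM with laminin 511-E8. All 3 laminin libraries lay below all 3 control libraries, by a margin of less than the spread within either group.

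SLC12A2 (ENSG00000064651, chromosome 5, 128083766 to 128189688, plus strand) encodes NKCC1, the basolateral cotransporter that loads secretory cells with chloride. It had 44.7, 33.9 and 40.1 CPM in control cells, 33.8, 47.2 and 24.2 CPM with acetazolamide, and 40.5, 30.7 and 42.6 CPM with laminin 511-E8. ATP1B1 (ENSG00000143153, chromosome 1, 169105697 to 169132722, plus strand) encodes a beta subunit of the Na,K-ATPase, which carries the pump to the membrane. It had 107, 87.7 and 94.8 CPM in control cells, 86.5, 115 and 76.4 CPM with acetazolamide, and 91.1, 72.8 and 92.0 CPM with laminin 511-E8. Both genes were lowest in the third acetazolamide library or the second laminin library and highest in the second acetazolamide library, as was SLC4A7. ATP1B1 shares 192 exon bases, 6.48% of its exon length, with NME7 on the opposite strand.

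CFTR (ENSG00000001626, chromosome 7, 117465784 to 117715971, plus strand) had 2 counts in the first control library, 1 in the first acetazolamide library and 0 in the other 7. Pooled over 215830470 counts this is 0.0139 CPM, with an exact 95% Poisson interval of 0.00287 to 0.0406 CPM for counting error only. ANO1 (ENSG00000131620, chromosome 11, 70078302 to 70189528, plus strand) had 0 counts in all 9 libraries, which allows up to 3 counts in all, or 0.0139 CPM. Neither gene passed the filter on low counts, so no comparison between groups was made for them, and these counts could not resolve a difference between groups. Within a single library the limit for ANO1 is 3 counts in that library, which is looser than 3 counts in all. Per length, SLC12A2 stood at least 75.1-fold above this limit per library, SLC4A2 at least 453-fold, and SLC4A4, the lowest of the counted members, at least 2.92-fold. ANO6, a more widely expressed member of the same family that scrambles membrane lipids and conducts ions, stood at least 418-fold above it, with 127 to 155 CPM.

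A count of 0 in these tables was not limited to genes that a bile duct cell would be expected to lack. PRKACA, which encodes a catalytic subunit of the cAMP-dependent protein kinase that phosphorylates CFTR and is used in nearly all cells, also had 0 counts in all 9 libraries. It lies in a run of 16 consecutive coding genes on chromosome 19, from ZSWIM4 to ADGRL1 (13795460 to 14206187), each with at most 6 counts over all libraries and 17 counts together, while the flanking genes C19orf53 and ADGRE5 had 12907 and 6328. ANO1 ended a shorter run of 4 such genes, the others being FGF19, FGF4 and FGF3, and its next neighbours FADD and PPFIA1 had 5811 and 3318 counts. ANO1 shares 646 exon bases with its antisense gene ANO1-AS1, which also had 0 counts. The reason for either run was not tested, and PRKACA and its neighbours were singled out after their values had been seen.

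**Figure D2:**
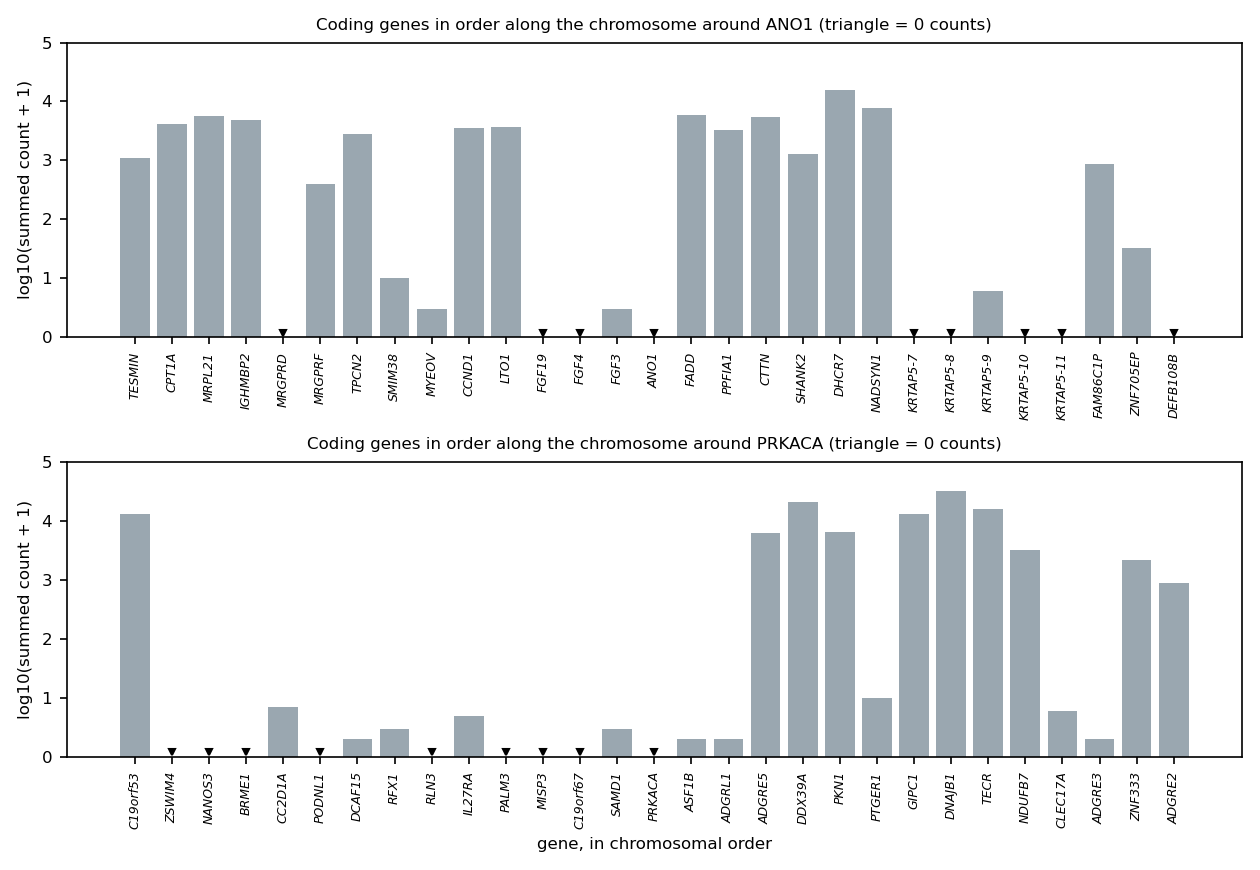
Counts summed over the 9 libraries, as log10(count + 1), for the coding genes on either side of ANO1 (upper) and PRKACA (lower), in the order in which they lie on the chromosome. The named gene stands in the middle, and triangles mark genes with 0 counts. FADD, PPFIA1 and CTTN next to ANO1 are counted, whereas PRKACA sits within 16 coding genes in a row that are each at 6 counts or fewer.

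The stretches of 250 bases upstream of the RefSeq start of SLC12A2, which is counted in every library, and of ANO1, which is not, are given to show that both are GC-rich and carry GC boxes. Capitals mark GGGCGG or, on the other strand, CCGCCC, found by a plain letter search that also counts overlapping matches. Positions are on GRCh38.p14, plus strand, chr5:128083516-128083765 for SLC12A2 and chr11:69985657-69985906 for ANO1, whose RefSeq start lies upstream of its start in GENCODE 29.
SLC12A2 upstream: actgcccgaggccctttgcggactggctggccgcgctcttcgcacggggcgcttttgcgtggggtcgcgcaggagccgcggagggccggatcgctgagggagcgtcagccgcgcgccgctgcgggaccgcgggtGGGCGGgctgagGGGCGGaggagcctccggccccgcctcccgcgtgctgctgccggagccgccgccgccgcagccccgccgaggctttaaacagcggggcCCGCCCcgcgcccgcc
ANO1 upstream: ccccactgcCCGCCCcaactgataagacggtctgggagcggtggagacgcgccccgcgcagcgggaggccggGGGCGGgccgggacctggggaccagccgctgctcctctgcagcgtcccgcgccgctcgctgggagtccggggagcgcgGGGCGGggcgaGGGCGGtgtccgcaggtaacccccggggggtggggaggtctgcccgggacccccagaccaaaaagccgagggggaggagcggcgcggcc
The SLC12A2 stretch holds 3 boxes at 79.6% GC and the ANO1 stretch 4 boxes at 78% GC. Of 17 such stretches of the 8 members 10 hold at least 1, as do 42.6% of 35116 stretches of the RefSeq table. The stretch of CFTR, which had 3 counts in all, holds 0 at 61.2% GC. Those of SLC4A7, counted in every library, hold 3 and 0. The match is a description of letters and says nothing of binding.

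Compared per length, the 6 counted genes spanned a wide range in control cells. On the scale of CPM per kb of exon, ATP1B1 stood at 32.6 ± 3.37, SLC4A2 at 15.4 ± 3.58, SLC4A7 at 5.09 ± 0.902, SLC26A6 at 5.04 ± 0.637, SLC12A2 at 3.71 ± 0.506 and SLC4A4 at 0.114 ± 0.0115 (SD, n = 3). Neighbours in this order were compared within libraries over all 9, pooled over the groups. The signs of the log2 ratios were permuted exactly (a two-sided permutation test, adjusted over the 5 pairs). The order was taken from the control libraries, which are also among the 9 tested. ATP1B1 exceeded SLC4A2, and SLC4A2 exceeded SLC4A7, in 9 of 9 libraries (adjusted p = 0.0065 for each), by mean log2 ratios of 0.99 ± 0.53 and 1.69 ± 0.67 (SD). SLC4A7 and SLC26A6 did not differ beyond their spread (log2 ratio -0.10 ± 0.65, SLC4A7 higher in 4 of 9, adjusted p = 0.68 by exact permutation). SLC26A6 exceeded SLC12A2 in 8 of 9 libraries (0.56 ± 0.60, adjusted p = 0.015 by exact permutation), and SLC12A2 exceeded SLC4A4 in 9 of 9 (5.07 ± 0.34, adjusted p = 0.0065 by exact permutation). When the length of 1 transcript per gene replaced that of all exons, SLC26A6 came to stand above SLC4A7, in 9 of 9 libraries (log2 ratio 1.05 ± 0.65, adjusted p = 0.0065 by exact permutation). On that scale ATP1B1 exceeded SLC4A2 in 7 of 9 libraries rather than 9 (0.55 ± 0.53, adjusted p = 0.023 by exact permutation). In CPM with no division by length, SLC4A2 stood above ATP1B1 in 7 of 9 libraries (0.37 ± 0.53, adjusted p = 0.088 by exact permutation) and SLC12A2 above SLC26A6 in 7 of 9 (0.18 ± 0.60, adjusted p = 0.39 by exact permutation).

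**Figure D3:**
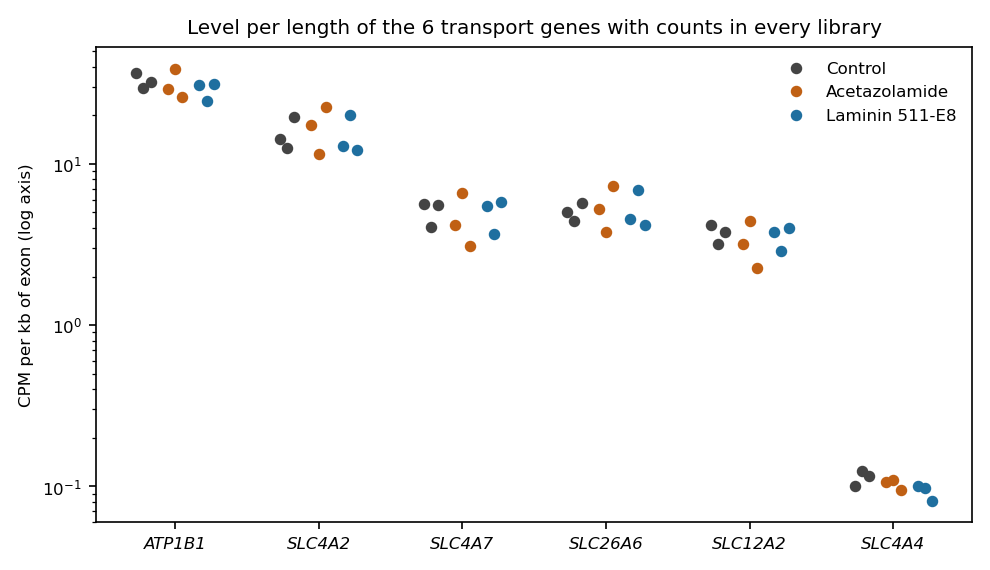
Level of the 6 counted genes in CPM per kb of exon, on a log axis, with each library as a dot coloured by group. ATP1B1 and SLC4A2 stand highest, SLC4A7, SLC26A6 and SLC12A2 lie close together between 2.27 and 7.32, and SLC4A4 stands near 0.1.

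Acetazolamide against control asks whether inhibition of carbonic anhydrase, which supplies the bicarbonate that these carriers move, altered their RNA. Of the 6 members tested, 0 passed an adjusted p of 0.05, as did 0% of all 15997 genes tested (292 genes, or 1.83%, at an unadjusted p below 0.05, 7 genes with DESeq2 and 0 with limma voom). The log2 fold changes ran from -0.23 for SLC12A2 (95% interval -0.77 to 0.31) to 0.10 for SLC4A2 (-0.46 to 0.66), with a median of -0.14 over the 6 and of 0.00 over all genes. For SLC4A7 the difference was -0.19 (-0.82 to 0.44), for SLC4A4 -0.15 (-0.66 to 0.35), for ATP1B1 -0.12 (-0.52 to 0.28) and for SLC26A6 0.05 (-0.48 to 0.58). A fall of SLC4A7 to 0.567 of the control level or a rise to 1.36-fold would both lie inside its interval. All adjusted p-values of members in this comparison were 1.00 by edgeR's quasi-likelihood test.

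Laminin 511-E8 against control asks whether contact with the matrix fragment altered them. Again 0 of 6 members passed, as did 0% of all genes tested (454 genes, or 2.84%, at an unadjusted p below 0.05, 21 genes with DESeq2 and 0 with limma voom). SLC4A4 had the largest log2 difference, -0.31 (-0.83 to 0.20), followed by ATP1B1 at -0.20 (-0.60 to 0.20), SLC12A2 at -0.08 (-0.62 to 0.46), SLC4A2 at -0.06 (-0.62 to 0.50), SLC4A7 at -0.04 (-0.67 to 0.59) and SLC26A6 at 0.01 (-0.52 to 0.54). SLC4A4 was the 1 member of the 6 whose 3 laminin libraries lay wholly below the 3 controls, which held for 3.96% of all genes tested. The median over the 6 was -0.07, and 0.00 over all genes.

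In laminin 511-E8 against acetazolamide, 0 of 6 members passed, as did 0% of all genes (374 genes, or 2.34%, at an unadjusted p below 0.05, 19 genes with DESeq2 and 0 with limma voom). The log2 differences ran from -0.16 for both SLC4A2 (-0.72 to 0.40) and SLC4A4 (-0.66 to 0.34) to 0.15 for both SLC4A7 (-0.48 to 0.77) and SLC12A2 (-0.39 to 0.69). The intervals of these differences, in folds, reached from 0.607 for the lower bound of SLC4A2 to 1.71 for the upper bound of SLC4A7, so changes within those bounds would not have been resolved.

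Libraries also differed in how their counts depended on the GC content of the genes. A slope of each library's deviations on GC content over all genes tested ran from -0.26 in the second acetazolamide library to 0.36 in the third, on the log2 scale per 10 percentage points of GC, and stood at 0.25 in the second laminin library and between -0.12 and 0.06 in the controls. SLC4A2 and SLC26A6, whose transcripts are 61.3% and 58.2% GC, were highest in the libraries with a positive slope. SLC4A7, SLC12A2 and ATP1B1, at 37.2%, 41.2% and 47.0% GC, had their 2 lowest values in the third acetazolamide and the second laminin library, which had the steepest positive slopes.

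Across the 9 libraries the log2 level of SLC26A6 correlated with the slope at r = 0.96 (rho = 0.97), that of SLC4A2 at r = 0.96 (rho = 0.97), that of SLC12A2 at r = -0.94 (rho = -0.93), that of SLC4A7 at r = -0.92 (rho = -0.97) and that of ATP1B1 at r = -0.90 (rho = -0.85). By an exact permutation test with adjustment over 6 genes, p was 0.0002 for SLC4A2 and SLC26A6 (0.00033 for rho), 0.00054 for SLC12A2 (0.0011) and 0.0013 for SLC4A7 (0.00033) and ATP1B1 (0.0073). Without the third acetazolamide and the second laminin library, the 2 farthest from the median slope, r was 0.94 for SLC4A2, 0.89 for SLC26A6, -0.81 for SLC12A2, -0.76 for ATP1B1 and -0.72 for SLC4A7. SLC4A4, at 39.3% GC and 14 to 36 counts a library, gave r = -0.26 (adjusted p = 0.49) and rho = -0.12 (adjusted p = 0.78), both by exact permutation, and r = 0.25 without those libraries. The slope is itself computed from the same libraries and over all genes tested, and what sets it was not tested. The share of all genes that correlate with it was not computed, so the relation is not shown to be particular to these members.

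**Figure D4:**
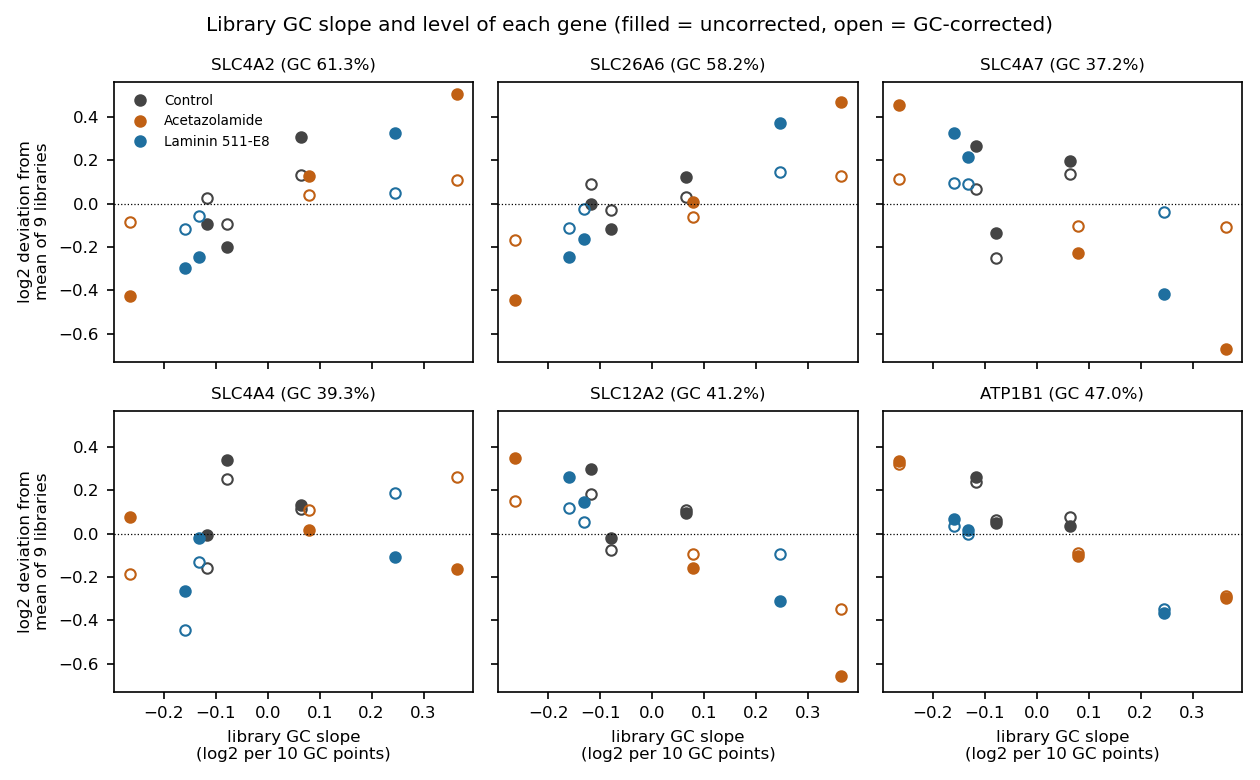
Log2 deviation of each counted gene from its mean over the 9 libraries, against the GC slope of the library in log2 units per 10 percentage points of GC, before (filled) and after (open) correction for GC content, coloured by group. SLC4A2 and SLC26A6 rise with the slope and SLC4A7, SLC12A2 and ATP1B1 fall with it, the correction narrows the spread of 4 of them, and ATP1B1 keeps nearly the same values.

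Removing the trend with GC content from each library narrowed the spread of 4 of the 6 genes. The ratio of the highest to the lowest library fell from 1.91 to 1.19 for SLC4A2, from 2.18 to 1.31 for SLC4A7, from 1.88 to 1.24 for SLC26A6 and from 2.00 to 1.44 for SLC12A2. It stayed near its value for ATP1B1, at 1.63 and 1.59, and rose from 1.52 to 1.63 for SLC4A4. After the correction the levels of SLC12A2 and ATP1B1 still correlated with the slope, at r = -0.83 (rho = -0.83) and r = -0.88 (rho = -0.72), with adjusted p of 0.012 for each r by exact permutation (0.025 and 0.044 for rho), and at r = -0.54 and -0.67 without the same pair of libraries. A relation of the same sign as before also remained for SLC4A2 (r = 0.77, adjusted p = 0.023 by exact permutation, rho = 0.77, adjusted p = 0.043) and SLC26A6 (r = 0.78, adjusted p = 0.023, rho = 0.73, adjusted p = 0.044), with r of 0.76 and 0.49 without that pair. SLC4A4, which had shown no relation that passed the threshold, had one after the correction (r = 0.74, adjusted p = 0.025 by exact permutation, rho = 0.85, adjusted p = 0.025), with r of 0.65 without that pair. The correction takes from each library a trend with GC content that goes with its slope. By itself it can tie to the slope a gene that had not followed it. These p-values for SLC4A4 therefore cannot be told apart from an effect of the correction. For SLC4A7 the relation after the correction did not pass the threshold (r = -0.43, adjusted p = 0.25 by exact permutation, rho = -0.58, adjusted p = 0.11).

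With the correction, 0 of 6 members passed in any of the 3 comparisons, beside 0% of 15737 genes with a known GC content for acetazolamide against control, 0.324% for laminin 511-E8 against control and 0.191% for laminin 511-E8 against acetazolamide. The differences for acetazolamide against control drew closer to 0 for SLC4A2, at 0.00 (-0.17 to 0.17) on the log2 scale, or 0.999-fold with an interval of 0.889 to 1.12, and for SLC4A7, at -0.02 (-0.24 to 0.20). SLC26A6 stood at -0.06 (-0.27 to 0.15), SLC4A4 at -0.01 (-0.60 to 0.57), ATP1B1 at -0.12 (-0.46 to 0.21) and SLC12A2 at -0.16 (-0.41 to 0.10), the last being 0.898-fold with an interval of 0.751 to 1.07.

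For laminin 511-E8 against control, the corrected differences were -0.22 (-0.56 to 0.12) for ATP1B1, -0.24 (-0.84 to 0.36) for SLC4A4, -0.06 (-0.23 to 0.10) for SLC4A2, -0.05 (-0.31 to 0.21) for SLC12A2, -0.03 (-0.23 to 0.18) for SLC26A6 and 0.06 (-0.17 to 0.28) for SLC4A7, on the log2 scale. ATP1B1 was now the 1 member whose laminin libraries lay wholly below the controls, as 7.17% of all genes tested did, with an adjusted p of 0.83 by edgeR's quasi-likelihood test. In folds, the intervals after laminin 511-E8 were narrower with the correction for SLC4A2 (0.851 to 1.08), SLC26A6 (0.852 to 1.13) and SLC4A7 (0.891 to 1.22). That for ATP1B1 narrowed less, from 0.659 to 1.15 without the correction to 0.678 to 1.08 with it. That for SLC4A4 widened, from 0.563 to 1.15 without it to 0.559 to 1.28. All of these intervals take the GC trend of each library as known and leave out its own uncertainty. For laminin 511-E8 against acetazolamide the corrected differences lay between -0.22 for SLC4A4 (-0.81 to 0.36) and 0.11 for SLC12A2 (-0.15 to 0.37).

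**Figure D5:**
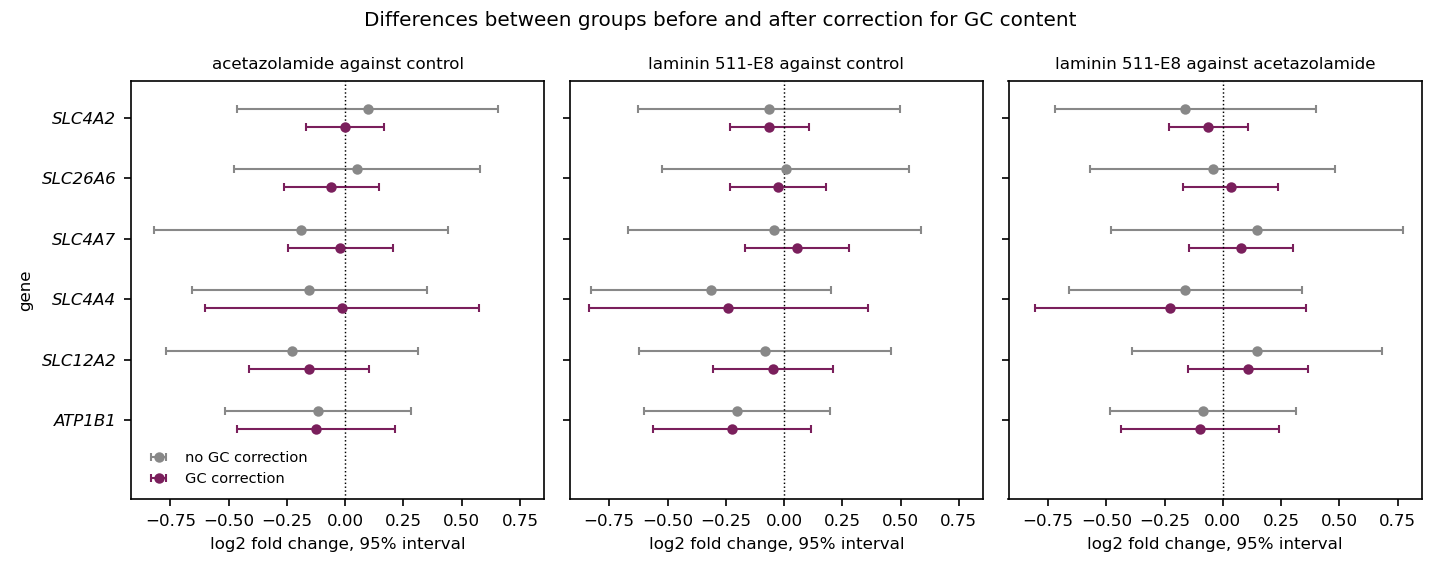
Log2 fold change of each counted gene in the 3 comparisons with its 95% interval, without (grey) and with (purple) correction for GC content, from edgeR fits over all 9 libraries. All intervals include 0. Those of SLC4A2, SLC26A6, SLC4A7, SLC12A2 and, to a lesser degree, ATP1B1 are narrower with the correction, and those of SLC4A4 are wider.

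The other genes of the secretory pathway were examined in 8 lists of 114 genes in all, members included, of which 70 passed the filter on low counts. None of the 70 passed an adjusted p of 0.05 in any comparison, with or without the GC correction, and their median log2 fold change was 0.03 for acetazolamide and -0.04 for laminin 511-E8 against control without the correction, beside 0.00 over all genes for each.

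Among the SLC4 bicarbonate transporters 6 of 10 were tested, and after SLC4A2 and SLC4A7 the next was SLC4A3, an anion exchanger, at 2.11 ± 0.576 CPM per kb in control cells (SD, n = 3). SLC4A1, the anion exchanger of red cells, had 0 counts in all libraries. Among the SLC26 anion exchangers 4 of 11 were tested, led by SLC26A2, a sulfate transporter, at 86.8 ± 9.66 CPM per kb, then SLC26A6 and SLC26A11. SLC26A2 came nearest to the threshold of all listed genes, with 747 ± 83.1 CPM in control and 571 ± 74.9 CPM in laminin 511-E8 libraries, a GC-corrected log2 fold change of -0.34 (-0.49 to -0.20) and an adjusted p of 0.063 by edgeR's quasi-likelihood test.

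Of 25 chloride channel genes 17 were tested. CLCN3, an endosomal chloride-proton exchanger, ANO6 and LRRC8A, the obligatory subunit of the volume-regulated anion channel, were the most abundant, at 16.9 ± 0.578 CPM per kb for CLCN3 and 16.8 ± 1.10 for ANO6 in control cells. Of the SLC12 cotransporters 6 of 9 were tested, led by SLC12A2, with the potassium-chloride cotransporter SLC12A4 also among the 3 most abundant, whereas the renal members SLC12A1 and SLC12A3 had 0 counts. Of the sodium-proton exchangers 6 of 9 were tested, and SLC9A7 was among the 3 most abundant.

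Of 14 Na,K-ATPase subunits and FXYD regulators 6 were tested. The beta subunits ATP1B3 and ATP1B1 were among the 3 most abundant per length in control cells, and FXYD1, FXYD2, FXYD4 and FXYD6 had 0 counts. Scaffolds and kinases that place or regulate these transporters were nearly all measured, with 13 of 15 tested and EZR, STK39 and AHCYL1 the most abundant. EZR, which tethers apical membrane proteins to actin, stood at 145 ± 6.64 CPM per kb. In the list for secretin, bile acid and nucleotide signalling 12 of 21 were tested, led by PRKAR1A, PRKAR2A and ADCY3, while the secretin receptor SCTR and the muscarinic receptor CHRM3 had 0 counts, the bile acid receptor GPBAR1 had 3 and the water channel AQP1 had 9 over all libraries.

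The genes whose log2 level over the 9 libraries was most like that of each member were named by their Pearson correlation among 12496 genes with at least 1 CPM in every library, as a description. Without the GC correction these were PATZ1 and WDR6 for SLC4A2 (r = 1.00 each), BAHD1 and SMG5 for SLC26A6 (r = 0.99 each), CD47 and FAM210A for SLC4A7 (r = 0.99 each), TRMT1L and TGFBR1 for SLC12A2 (r = 1.00 and 0.99), and DCBLD2 and NR3C1 for ATP1B1 (r = 0.99 each). The genes most like the GC-rich SLC4A2 and SLC26A6 were themselves 57.6% to 59.0% GC, and those most like SLC4A7, SLC12A2 and ATP1B1 were 37.1% to 41.8% GC. With the correction none of these 10 genes stayed among the 2 most like, which were then C20orf96 and SBF1 for SLC4A2, GPR89A and SEL1L3 for SLC26A6, USP10 and CIPC for SLC4A7, DNAAF10 and GNA13 for SLC12A2, and STX6 and RNF103 for ATP1B1 (r = 0.94 to 0.99 over the 9 libraries, among 12418 genes).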

How the data were processed

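RNA of 9 libraries of H69 cholangiocytes, 3 each of control, acetazolamide and laminin 511-E8, was sequenced after poly(A) capture. The authors deposited raw counts per gene. Per the labels, reads were trimmed (Trimmomatic 0.39), aligned to GRCh38 (HISAT2 2.2.1) and counted (HTSeq 0.11.0), with quality checks in FastQC 0.11.9. The strand setting is not given in the sources used here, nor is the annotation release. Of 61541 genes, 61369 were named from the gene table and 159 from GENCODE release 29, which also gave coordinates, exon lengths and GC content (longest coding transcript). The members and gene lists were chosen with earlier results of these data known.

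Counts of 15997 genes that passed filterByExpr were fitted in edgeR 4.0.16 (R 4.3.3) with TMM scaling and a robust quasi-likelihood model over all 9 libraries, with Benjamini-Hochberg adjustment over all genes and a threshold of 0.05. GC correction subtracted each library's local regression on GC content (span 0.3, 15737 genes). Other alternatives were DESeq2 1.42.0, limma 3.58.1 (voom), other scalings, filters and thresholds, a fit of the 6 libraries compared, a replicate block, and fits without each library. GC correction with limma voom was added after the data had been seen. Scripts for many genes were tested on simulated data. Levels, floors (3 counts) and intervals were computed in Python 3.11.15 with pandas 2.3.3 and SciPy 1.17.1. Named genes are the members, the 3 most abundant genes of each list per length in control cells, list genes that passed, and the 2 genes most like each member. Some genes that this rule names are not reported here.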

Additional observations from a re-analysis of the deposited data

How the results depend on the processing

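No member passed an adjusted p of 0.05 under any of the alternatives, with a smallest adjusted p of 0.48 over 522 values, of which 432 kept the direction of the value reported and 90 did not. Such changes of sign are of differences whose intervals include 0. On the log2 scale and for acetazolamide against control, SLC4A2 turned to 0.00 (-0.0014) with GC correction and to -0.00042 with GC-corrected limma voom, SLC4A4 to 0.0036 with GC-corrected limma voom, and SLC26A6 to -0.060 with GC correction, -0.0013 with limma voom and -0.072 with both. For laminin 511-E8 against control, SLC4A7 turned to 0.057 with GC correction and 0.065 with GC-corrected limma voom, and SLC26A6 to -0.013 without a filter on low counts, -0.022 with limma voom, -0.026 with GC correction and -0.036 with both. For laminin 511-E8 against acetazolamide, SLC26A6 turned to 0.034 with GC correction and 0.036 with GC-corrected limma voom.

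Replicate numbers were shared between groups in the labels. Deviations of same-numbered libraries from their group means correlated at r from -0.94 to 0.58 over 9106 genes. With GC correction r ran from -0.71 to 0.31 over 9091 genes. Whether same-numbered libraries share more than a number was not tested. With a block for replicate number, 0 genes passed in each comparison. With block and GC correction, 11 genes passed in laminin 511-E8 against control, and the log2 differences that changed sign were -0.0012 for SLC4A2 and -0.061 for SLC26A6 with acetazolamide against control, 0.059 for SLC4A7 and -0.024 for SLC26A6 with laminin 511-E8 against control, and 0.036 for SLC26A6 with laminin 511-E8 against acetazolamide.

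Over fits that left out 1 library, with and without GC correction, the members ranged as follows for acetazolamide against control, on the log2 scale. SLC4A2 ranged from -0.13 to 0.31, SLC4A4 from -0.30 to 0.11, SLC4A7 from -0.54 to 0.051, SLC12A2 from -0.50 to -0.012, SLC26A6 from -0.19 to 0.25 and ATP1B1 from -0.31 to 0.018, with acetazolamide library 2 or 3 left out at most of these ends. For laminin 511-E8 against control, SLC4A2 ranged from -0.30 to 0.092, SLC4A4 from -0.46 to -0.027, ATP1B1 from -0.30 to -0.082, SLC4A7 from -0.18 to 0.15, SLC12A2 from -0.19 to 0.067 and SLC26A6 from -0.22 to 0.13. For laminin 511-E8 against acetazolamide, SLC4A2 ranged from -0.39 to 0.066, SLC4A4 from -0.38 to -0.012, SLC4A7 from -0.082 to 0.49, SLC12A2 from -0.070 to 0.42, SLC26A6 from -0.27 to 0.20 and ATP1B1 from -0.22 to 0.11.

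Counts of all genes called moved more. They were 0 with edgeR and 7, 21 and 19 with DESeq2 for acetazolamide against control, laminin 511-E8 against control and laminin 511-E8 against acetazolamide, and for the 2 comparisons with laminin 511-E8, 51 and 30 with GC correction and 20 and 21 with GC-corrected limma voom. Without 1 library they ranged from 0 to 3, from 0 to 62 and from 0 to 32, and of the listed transport genes 0 to 1 passed, the 1 being SLC26A2 in laminin 511-E8 against control without control library 2 and with GC correction (log2 fold change -0.40, edgeR adjusted p = 0.020). The order by level per length had 4 of 5 neighbours apart without any 1 library. Without control library 1 the order itself changed, with SLC26A6 above SLC4A7, so that the neighbours compared were not all the same. In the 3 control libraries alone 0 neighbours were apart, since the smallest p that design allows is 0.25. The cause of these changes was not tested. Depth limits SLC4A4, at 14 to 36 counts a library, and CFTR, at 3 counts in all, and whether it limits ANO1 was not tested.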
